A study of Mus musculus with 2 samples.

Results

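The autophagy and lysosome genes described here are 39 genes taken by symbol from a deposited table of 44787 gene rows. The rule names them by symbol and known function and uses no measured value, but the list was chosen with earlier results of these data known. All 39 symbols were found in the table. They were grouped by role into 5 members of the ATG8 family, 5 cargo receptors, 9 genes of initiation and membrane source, 5 genes of the conjugation machinery, 2 transcription factors, 4 lysosomal membrane genes and 9 genes of lysosomal hydrolases and other proteins of the lumen.

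The table holds 2 RNA sequencing libraries from mouse hindlimb muscle, 1 labelled WT and 1 labelled SRSF1-MKO, both on the C57BL/6 background and both from animals aged 30 postnatal days. The labels name no Cre driver, do not spell out MKO and do not say how many animals went into a library. With 1 library a group no test between genotypes was possible, and every interval below is a 95% counting interval, which holds no variation between animals. The libraries held about 23146640 (WT) and 21350284 (SRSF1-MKO) counted reads, as recovered from the values. Values are FPKM (fragments or reads per kilobase of transcript and per 1000000 mapped reads), a scale on which levels of different genes can be compared per length.

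Srsf1, the gene named in the genotype label, was at 13.7 FPKM in the WT library and 6.70 FPKM in the SRSF1-MKO library, 2.04-fold lower, in a row placed on a scaffold. Each sample carries a pair of description lines that name opposite columns, so columns were assigned by the genotype in their names, and every direction below rests on that. The libraries also differed in sex-linked RNA. Xist was at 0.00482 and 8.15 FPKM, and the Y-linked Ddx3y was at 11.7 FPKM in WT and listed at 0 in SRSF1-MKO, so genotype and sex cannot be told apart. All 10 myofibre markers were found, and they differed between the libraries in both directions, 4 higher and 3 lower by 1.5-fold, with a sum of 92417 FPKM (WT) and 56135 FPKM (SRSF1-MKO). The fast myosin Myh4 was at 28777 and 7176 FPKM, Myh2 at 78.2 and 2399 FPKM and the slow myosin Myh7 at 0.121 and 21.6 FPKM. The part of this fibre-type difference in the values below was not tested. The scale itself was not level between the libraries: the median log2 ratio was 0.21 over the 10477 genes that averaged at least 1 FPKM and 0.32 over the 4990 that averaged at least 5. Rows of mitochondrial DNA made up 19.5% of the summed FPKM in WT and 35.4% in SRSF1-MKO.

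Autophagy encloses cytoplasm in a double membrane, the autophagosome, which then fuses with a lysosome whose acid hydrolases break down the contents. Kinase and lipid kinase complexes start the membrane, a ubiquitin-like conjugation system attaches ATG8 proteins to it, and receptors that bind both cargo and ATG8 select what is enclosed. In skeletal muscle this route removes damaged organelles and protein, and its genes are known to respond to fasting and loss of innervation. Transcription factors of the TFEB family bind E-box motifs in the promoters of many lysosomal genes.

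Wipi1, Map1lc3a, Ctsl, Gabarapl1, Ctsz and Hexa were more than 2-fold higher in the SRSF1-MKO library and Ulk2 more than 2-fold lower, while most of the other genes lay within 1.5-fold. An average of at least 1 FPKM over the libraries was found for 38 of them, and each of these 38 was at 1 FPKM or more in WT as well. On the log2(FPKM + 1) scale, which understates ratios of low genes, 13 of the 38 (34.2%) were higher in SRSF1-MKO by at least 1.5-fold and 2 (5.26%) at least 1.5-fold lower. Among all 10477 genes measured, 23.7% were higher and 8.13% lower by the same rule. The median log2 ratio of the 38 genes was 0.35, beside 0.21 for all genes measured. At 2-fold, 6 genes were higher (9.44% of all genes) and 1 was lower (3.12% of all genes).

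Much of the higher count moved with the scale. Once 0.32, the median of the genes averaging at least 5 FPKM, was taken off every log2 ratio (the centred scale), 6 of the 38 genes (15.8%) remained at least 1.5-fold higher, beside 11.4% of all genes, and 3 (7.89%) were lower, beside 18.1%. The 6 were Map1lc3a, Gabarapl1, Wipi1, Ctsl, Ctsz and Hexa, and the 3 were Ulk2, Fundc1 and Atg9a. On that scale the median of the 38 genes was 0.03 and that of all genes measured was -0.12. With the median of all genes measured, 0.21, taken off instead, 7 genes were higher, the same 6 and Grn, beside 14.6% of all genes, and the same 3 were lower, beside 13.6%.

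**Figure D1:**
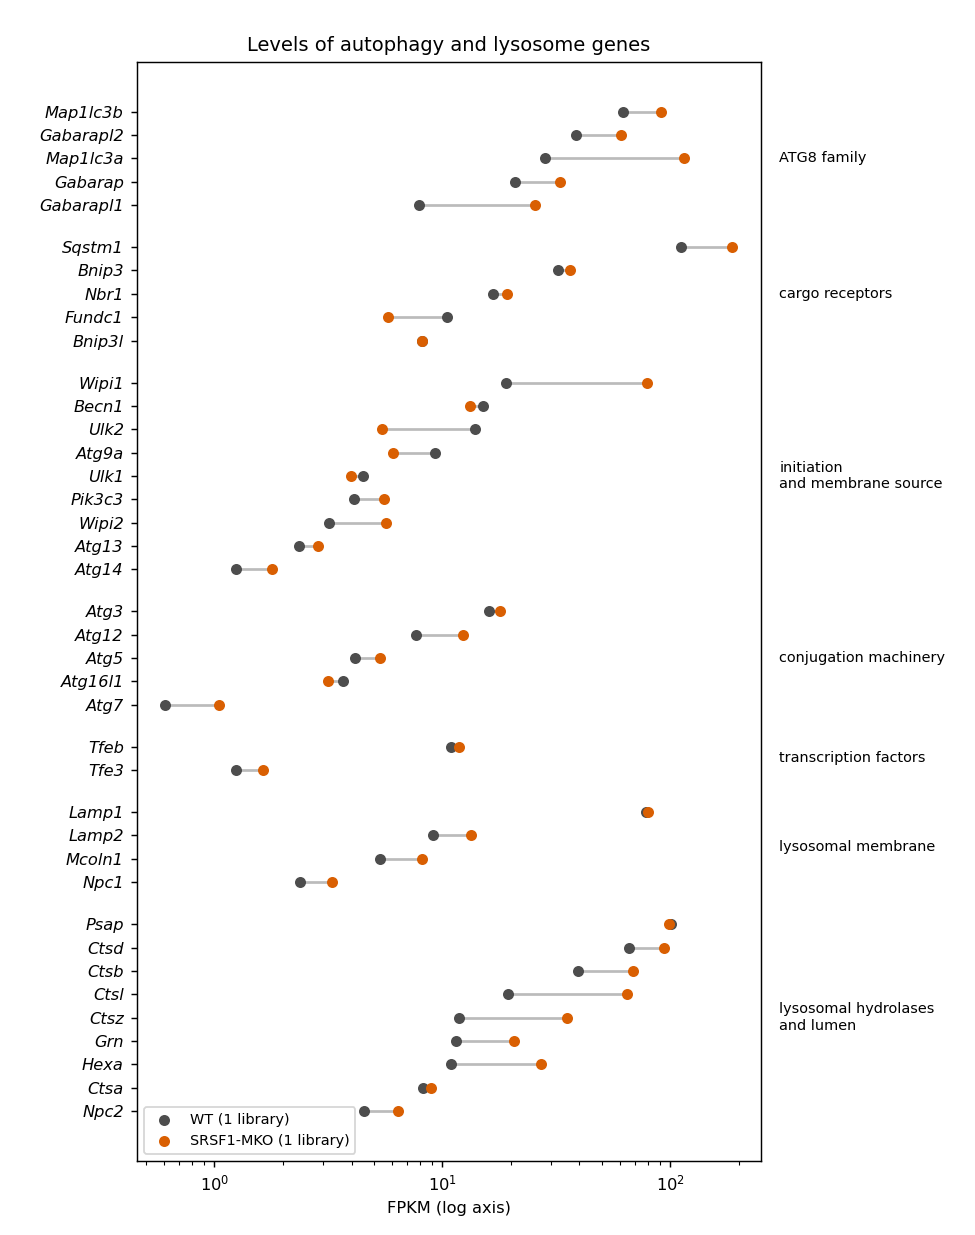
Level of each gene in FPKM on a log axis, with 1 point per library (grey for WT, orange for SRSF1-MKO) and genes ordered by their WT level within each role. The widest gaps are those of Wipi1, Map1lc3a, Ctsl, Gabarapl1 and Ctsz, higher in SRSF1-MKO, and the widest in the other direction is that of Ulk2.

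All 5 members of the ATG8 family were at higher FPKM in the SRSF1-MKO library, as were 6899 of the 10477 genes measured. Of the 5, 4 passed 1.5-fold, beside 23.7% of all genes measured. On the centred scale 2 of the 5 passed it, beside 11.4% of all genes. ATG8 proteins are the ubiquitin-like proteins that coat the autophagosome membrane and dock the receptors. Map1lc3a (LC3A, mm10 chr2:155276364-155278073, plus strand) was at 28.2 FPKM (WT) and 115 FPKM (SRSF1-MKO), from about 683 and 2573 reads, a ratio of 4.08 with a counting interval of 3.75 to 4.45. Map1lc3b (LC3B), the form most often used as an autophagosome marker, was at 62.3 and 91.1 FPKM, a ratio of 1.46 (1.40 to 1.53) that stayed under 1.5-fold. The order of the LC3 genes was thereby exchanged, LC3B leading in WT and LC3A in SRSF1-MKO.

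The GABARAP branch of the family showed the same unevenness. Gabarapl1 (chr6:129533192-129542331, plus strand), the family member with the lowest FPKM in both libraries, was at 7.94 and 25.6 FPKM, a ratio of 3.23 (2.84 to 3.67). Gabarap was at 20.9 and 33.0 FPKM and Gabarapl2 at 38.8 and 61.0 FPKM, ratios of 1.58 and 1.57. On the centred scale, the log2 ratios of Map1lc3a and Gabarapl1 were 1.67 and 1.25, and those of Map1lc3b, Gabarap and Gabarapl2 lay between 0.22 and 0.32.

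Shares within a library do not depend on the scale between libraries. Map1lc3a made up 17.8% of the summed FPKM of the family in WT and 35.4% in SRSF1-MKO, and Map1lc3b 39.4% and 27.9%. The FPKM of Map1lc3a over that of Map1lc3b was 0.454 in WT and 1.27 in SRSF1-MKO, a 2.79-fold difference between the libraries. Gabarapl1 over Gabarapl2 was 0.205 and 0.420, a 2.05-fold difference. The family as a whole summed to 158 FPKM (WT) and 326 FPKM (SRSF1-MKO).

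The levels of 3 of these genes are less certain than the others. The FPKM values of 34 of the 39 genes came out as whole reads at a length within 2-fold of a RefSeq-matched transcript. Those of Map1lc3b, Gabarap, Gabarapl2, Bnip3 and Bnip3l became whole only at lengths 4.06 to 20.8 times the longest such transcript. The table lists near-identical copies of some of them: Gm3724, described as a Gabarapl2 pseudogene, was at 22.1 and 38.0 FPKM, and the LC3 pseudogene Gm6055 at 2.18 and 2.93 FPKM. The row of Gabarap is placed on a scaffold and not on a chromosome. Whether reads were divided between these rows was not tested, and the 5 levels are given as uncertain. Map1lc3a and Gabarapl1, with the highest ratios of the family, were among the 34.

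**Figure D2:**
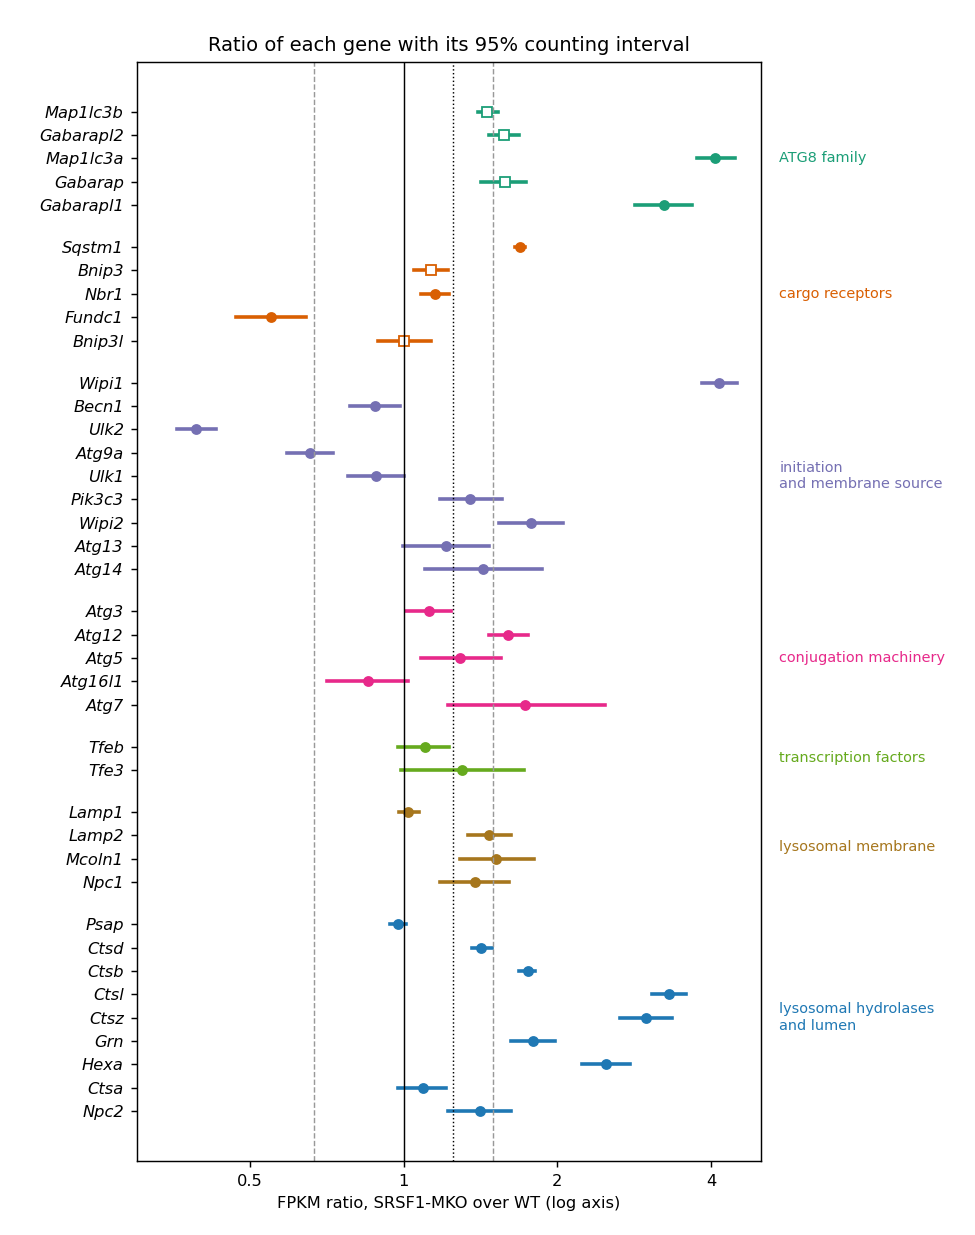
FPKM ratio of SRSF1-MKO over WT for each gene on a log axis, with its 95% counting interval as a bar, coloured by role; open squares mark the 5 genes whose values did not come out as whole reads. Dashed lines stand at 1.5-fold, the dotted line at the median of genes averaging at least 5 FPKM, and 6 genes lie beyond 2 on the higher side.

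Of the 5 cargo receptors 1 was higher and 1 lower by 1.5-fold, beside 23.7% and 8.13% of all genes measured. On the centred scale 0 were higher and 1 lower, beside 11.4% and 18.1%. Sqstm1 (p62, chr11:50200152-50210790, minus strand), which carries ubiquitinated protein into autophagosomes, was the most abundant of all 39 genes in both libraries. It was at 111 FPKM (WT) and 187 FPKM (SRSF1-MKO), a ratio of 1.69 (1.65 to 1.73), with a log2 difference of 0.75 as deposited and 0.43 on the centred scale. Nbr1, a receptor of like design, was at 16.7 and 19.3 FPKM, a ratio of 1.15. Sqstm1 stood at 6.63 times Nbr1 in WT and 9.70 times in SRSF1-MKO.

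The receptors that sit on mitochondria were level or lower. Bnip3 was at 32.2 and 36.5 FPKM and Bnip3l (Nix) at 8.13 and 8.15 FPKM, with ratios of 1.13 and 1.00. Their log2 ratios, 0.17 and 0.00 as deposited, were -0.15 and -0.32 on the centred scale. Fundc1, a receptor of the outer mitochondrial membrane known from hypoxia, was at 10.5 FPKM (WT) and 5.79 FPKM (SRSF1-MKO). That is 1.82-fold lower (interval 1.55 to 2.13), from about 475 and 241 reads. Fundc1 lies on the X chromosome, as do Lamp2 and Tfe3 and, of the further genes named below, Atg4a and Atp6ap1. The part of the difference in sex-linked RNA in the values of these genes was not tested.

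Among the 9 genes of initiation and membrane source, 2 (22.2%) were higher and 1 (11.1%) lower, beside 23.7% and 8.13% of all genes measured. On the centred scale 1 was higher and 2 lower, beside 11.4% and 18.1%. Both extremes of the 39 genes were in this group. Wipi1 (chr11:109573521-109611389, minus strand), which reads the phosphoinositide made at the forming membrane, was at 19.0 FPKM (WT) and 78.9 FPKM (SRSF1-MKO). Its ratio of 4.15 (3.84 to 4.49) was the highest of the 39, next to Map1lc3a. Its relative Wipi2, which recruits the conjugation machinery, was at 3.18 and 5.65 FPKM, a ratio of 1.78 (1.54 to 2.05). Wipi1 took 26.2% of the summed FPKM of these 9 genes in WT and 63.9% in SRSF1-MKO.

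Ulk2 (chr11:61777747-61855326, minus strand), a kinase that starts autophagosome formation, was at 13.9 FPKM (WT) and 5.45 FPKM (SRSF1-MKO). It was 2.54-fold lower (2.33 to 2.78), from about 1864 and 676 reads, the lowest ratio of the 39. Its paralogue Ulk1 was at 4.50 and 3.98 FPKM, a ratio of 0.884 whose interval, 0.778 to 1.00, reached 1. On the centred scale the log2 ratio of Ulk1 was -0.47. Ulk2 was at 3.08 times the FPKM of Ulk1 in WT and 1.37 times in SRSF1-MKO. Atg9a, the membrane protein of the vesicles that seed the autophagosome, was at 9.25 and 6.07 FPKM, 1.52-fold lower on FPKM itself (1.37 to 1.69) and just under the limit on the log2(FPKM + 1) scale at -0.54.

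The other genes of this group lay within 1.5-fold. Of the lipid kinase complex, Becn1 (Beclin) was at 15.1 and 13.3 FPKM and the catalytic subunit Pik3c3 at 4.11 and 5.56 FPKM. Atg14, which brings that complex to the site of assembly, was at 1.25 and 1.79 FPKM, and Atg13, a partner of the ULK kinases, at 2.36 and 2.85 FPKM. On the centred scale, the log2 ratios of these genes were -0.49, 0.04, -0.01 and -0.12 in the same order.

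Of the 4 measured genes of the conjugation machinery, Atg12 was higher and 3 lay within 1.5-fold. Of all genes measured, 23.7% were higher and 8.13% lower. Atg12, the ubiquitin-like protein that is joined to Atg5, was at 7.70 and 12.3 FPKM, a ratio of 1.60 (1.47 to 1.75), and Atg5 was at 4.13 and 5.34 FPKM. Atg3, the enzyme that passes ATG8 proteins to lipid and the most abundant of this group, was at 16.0 and 17.9 FPKM. Atg16l1, the scaffold that places this reaction on the membrane, was at 3.68 and 3.14 FPKM. Atg7, the activating enzyme, was the 1 gene under the filter, at 0.607 FPKM (WT) and 1.05 FPKM (SRSF1-MKO), from about 55 and 88 reads, a ratio of 1.73 (1.22 to 2.48). None of the 4 measured members of this group was beyond 1.5-fold on the centred scale.

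**Figure D3:**
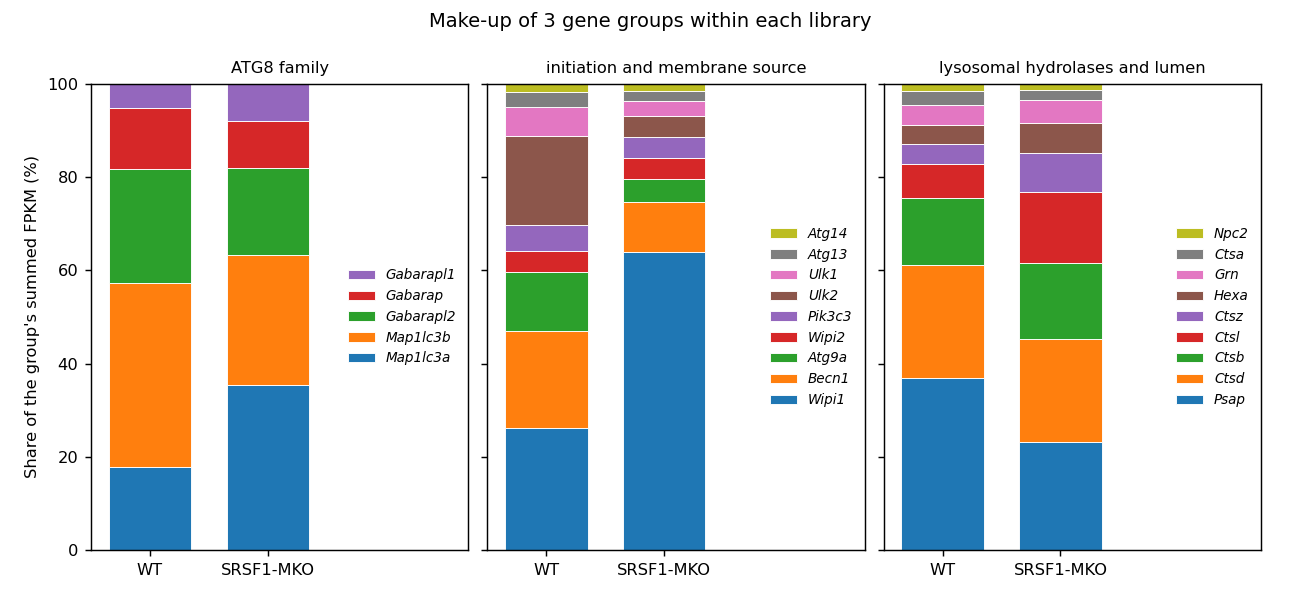
Share of each gene in the summed FPKM of its group, in percent, for the ATG8 family, the genes of initiation and membrane source, and the lysosomal hydrolases with other proteins of the lumen, with 1 bar per library. Map1lc3a goes from 17.8% to 35.4%, Wipi1 from 26.2% to 63.9% and Ctsl from 7.17% to 15.3% between WT and SRSF1-MKO.

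The lysosomal hydrolases and other proteins of the lumen had a median log2 ratio of 0.79. Of the 9 genes 5 were higher by at least 1.5-fold and 0 lower, beside 23.7% and 8.13% of all genes measured. The cysteine protease cathepsin L (Ctsl, chr13:64363214-64370306, minus strand) was at 19.5 FPKM (WT) and 64.7 FPKM (SRSF1-MKO), a ratio of 3.31 (3.07 to 3.58). Cathepsin Z (Ctsz, chr2:174427494-174438992, minus strand), a carboxypeptidase, was at 11.9 and 35.4 FPKM, a ratio of 2.98 (2.65 to 3.35). Hexa, which takes part in the breakdown of gangliosides, was at 10.9 and 27.2 FPKM, a ratio of 2.49 (2.24 to 2.78). These 3 genes remained beyond 1.5-fold on the centred scale, at log2 ratios of 1.36, 1.18 and 0.92.

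The other 2 higher genes of the lumen were within 1.5-fold on the centred scale. Cathepsin B (Ctsb) was at 39.4 and 68.8 FPKM and progranulin (Grn), a secreted and lysosomal glycoprotein, at 11.5 and 20.7 FPKM, with ratios of 1.75 and 1.79. The aspartic protease cathepsin D (Ctsd) was at 65.7 and 93.6 FPKM, a ratio of 1.42 (1.36 to 1.49). Prosaposin (Psap), precursor of the saposins that help lipid hydrolases and the most abundant gene of this group, was at 101 and 98.4 FPKM. Its ratio of 0.977 (0.942 to 1.01) was level as deposited, with a log2 ratio of -0.35 on the centred scale. Npc2, a cholesterol carrier, was at 4.54 and 6.39 FPKM, and Ctsa, a carboxypeptidase that also protects other hydrolases, at 8.23 and 8.94 FPKM.

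Cathepsin L lay closer to cathepsins B and D in SRSF1-MKO than in WT. The FPKM of Ctsl was 0.496 times that of Ctsb in WT and 0.941 times in SRSF1-MKO, and against Ctsd it was 0.297 and 0.692 times. The share of Psap in the group was 37.0% in WT and 23.2% in SRSF1-MKO.

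Macrophages are rich in cathepsins, and their markers stood higher in the same library. Of 12 measured macrophage markers, 7 were higher in SRSF1-MKO by at least 1.5-fold and 0 lower, beside 23.7% and 8.13% of all genes measured. On the centred scale 5 of the 12 were higher and 0 lower, beside 11.4% and 18.1%. Without Lgals3 and Cd68, 5 of 10 were higher as deposited and 3 of 10 on the centred scale. The 16 listed markers summed to 52.3 FPKM (WT) and 144 FPKM (SRSF1-MKO), with 0 of them at 0 in either library. Lyz2 was at 18.1 and 56.3 FPKM, Cd68, itself a lysosomal membrane protein, at 0.752 and 7.99 FPKM, and Lgals3 at 0.707 and 25.1 FPKM, while the pan-macrophage marker Adgre1 was at 0.679 and 1.36 FPKM and Csf1r at 1.49 and 2.29 FPKM. Mrc1, of resident macrophages, was at 6.79 and 5.61 FPKM. The part of these cells in the cathepsin values was not tested. More cells of a type and more RNA per cell cannot be told apart in bulk tissue. Of the other cell types, 3 of 4 measured Schwann cell markers were higher by 1.5-fold, and 2 of 6 endothelial and 5 of 5 adipocyte markers were lower. Fibro-adipogenic markers had 0 higher and 1 lower of 6, and erythroid markers 0 higher and 0 lower of 5. On the centred scale 2 of the 4 Schwann cell markers were higher. There, 5 of 6 endothelial, 5 of 5 adipocyte, 2 of 6 fibro-adipogenic and 3 of 5 erythroid markers were lower, beside 18.1% of all genes.

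The 4 lysosomal membrane genes were within 1.5-fold on the log2(FPKM + 1) scale. Lamp1, the main glycoprotein of that membrane, was at 78.2 FPKM (WT) and 80.1 FPKM (SRSF1-MKO), a ratio of 1.02 (0.980 to 1.07). Lamp2, whose loss leaves autophagic vacuoles in muscle, was at 9.08 and 13.4 FPKM. Mcoln1, a calcium channel, was at 5.35 and 8.14 FPKM, a ratio of 1.52 (1.29 to 1.80) and a log2 difference of 0.53, and Npc1, the cholesterol transporter, at 2.38 and 3.27 FPKM. The FPKM of Ctsl was 0.250 times that of Lamp1 in WT and 0.808 times in SRSF1-MKO, a 3.24-fold difference within the lysosomal genes.

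The transcription factors were near level as deposited. Tfeb was at 10.9 and 11.9 FPKM, a ratio of 1.10 (0.976 to 1.23), and Tfe3 at 1.25 and 1.63 FPKM, a ratio of 1.30 (0.990 to 1.72). Both intervals included 1. On the centred scale the log2 ratios of Tfeb and Tfe3 were -0.20 and -0.10. These are RNA levels, and both proteins are known to be controlled through their place in the cell.

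Promoters of lysosomal genes are shown to set the E-box, the motif of the TFEB family, beside the ratios above. RefSeq (GRCm38.p6) gave an upstream window of 250 bases for 31 of the 39 genes, and CACGTG, a palindrome, was present in 9 of the 31 (29.0%) and in 6.86% of 27025 symbols. The longer TCACGTGA, which contains CACGTG, was present in 4 of the 31 (12.9%), Atg3, Mcoln1, Ctsa and Ctsd, and in 0.907% of all symbols. A match in these letters is a description and shows no binding. In the windows below, E-boxes are in capitals and the last base is the one before the RefSeq start.
Lamp1 (chr8:13158911-13159160, plus strand): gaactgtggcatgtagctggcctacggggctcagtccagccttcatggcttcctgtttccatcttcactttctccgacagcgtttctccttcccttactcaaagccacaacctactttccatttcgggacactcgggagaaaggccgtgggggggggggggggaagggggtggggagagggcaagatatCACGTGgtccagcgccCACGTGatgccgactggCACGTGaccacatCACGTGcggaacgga
Ctsz (chr2:174439040-174439289, minus strand): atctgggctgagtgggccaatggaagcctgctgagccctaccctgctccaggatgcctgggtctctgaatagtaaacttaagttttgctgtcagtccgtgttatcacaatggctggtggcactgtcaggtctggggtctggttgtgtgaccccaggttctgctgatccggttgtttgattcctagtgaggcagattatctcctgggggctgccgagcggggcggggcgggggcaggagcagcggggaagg
Hexa (chr9:59539290-59539539, plus strand): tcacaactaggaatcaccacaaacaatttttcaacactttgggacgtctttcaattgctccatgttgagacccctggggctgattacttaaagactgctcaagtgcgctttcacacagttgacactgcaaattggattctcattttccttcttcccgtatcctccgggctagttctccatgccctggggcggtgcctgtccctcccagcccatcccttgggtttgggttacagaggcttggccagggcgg

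Lamp1 held 4 copies and had a ratio of 1.02, and Ctsz and Hexa held 0 and had ratios of 2.98 and 2.49. These 3 genes are examples, picked with earlier results of these data known. Lamp2, Npc2, Psap and Grn, the other lysosomal genes whose windows held 0 copies, had ratios of 1.47, 1.41, 0.977 and 1.79. The other genes with an E-box were Bnip3, Atg3, Atg5, Atg7, Mcoln1, Ctsa, Ctsd and Ctsl. Their ratios were 1.13, 1.12, 1.29, 1.73, 1.52, 1.09, 1.42 and 3.31 in that order. Whether the E-box has a part in these ratios was not tested. Of the 5 genes with a window that were at least 2-fold higher, Gabarapl1, Wipi1, Ctsl, Ctsz and Hexa, 1 held a copy, Ctsl. Map1lc3a has no window here. The windows of Ctsd and Mcoln1 held 2 copies each and that of Ctsl 1. For each gene 1 site is given as a stretch of 30 bases to show the bases beside the E-box. In Ctsd and Mcoln1 the copy shown is the one that lies in TCACGTGA, and the bases beside the copy of Ctsl do not complete it.
Ctsl (chr13:64370739-64370768, minus strand): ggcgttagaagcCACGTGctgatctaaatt
Ctsd (chr7:142387908-142387937, minus strand): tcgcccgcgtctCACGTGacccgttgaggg
Mcoln1 (chr8:3500462-3500491, plus strand): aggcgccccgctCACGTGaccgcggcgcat

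The same E-box was found in 19.2% of 120 further autophagy and lysosome genes with a window. The forkhead motif TGTTTAC, searched on both strands, was in 0 of the 31 windows, in 0.833% of those 120 and in 3.54% of all symbols. With so low a share of all symbols, 31 windows are too few for a count of 0 to tell anything. Whether this motif has a part in the ratios was not tested.

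Beyond the 39 genes, 145 further genes of the route in 7 lists were compared by the same rule, and their counts lay near those of all genes. Of 128 measured, 28 (21.9%) were higher in SRSF1-MKO by at least 1.5-fold and 7 (5.47%) lower, and their median log2 ratio was 0.25. On the centred scale the counts were 16 (12.5%) and 18 (14.1%), and with the median of all genes measured at 0 they were 20 and 12. For each list below, the shares of all genes measured are 23.7% higher and 8.13% lower as deposited. On the centred scale those shares are 11.4% and 18.1%.

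The vacuolar ATPase, the proton pump that acidifies the lysosome, had the highest median of the 7 lists at 0.60, with 8 of 16 subunits and accessory proteins higher and 2 lower. Atp6v1h was at 3.60 and 12.0 FPKM, Atp6v1f at 9.01 and 18.8 FPKM and Atp6v0e at 4.66 and 10.8 FPKM. The lower pair were Atp6v0a1, at 13.6 and 6.77 FPKM, and the accessory Atp6ap1, at 14.4 and 7.68 FPKM. On the centred scale there were 4 (25.0%) higher and 2 (12.5%) lower, beside 11.4% and 18.1% of all genes.

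As a list, the other lysosomal hydrolases had a lower median log2 ratio, 0.13, than the 9 genes of hydrolases and lumen above, 0.79. Of 27 measured, 5 (18.5%) were higher and 1 (3.70%) lower, beside 23.7% and 8.13% of all genes measured. On the centred scale 3 were higher and 4 lower, with a median of -0.19. Cathepsin S (Ctss), a protease of antigen-presenting cells, was at 5.56 FPKM (WT) and 44.2 FPKM (SRSF1-MKO), a ratio of 7.94 (6.78 to 9.36). Legumain (Lgmn), another cysteine protease, was at 14.7 and 44.3 FPKM. Ppt1, a thioesterase, was at 4.16 and 7.65 FPKM and Dnase2a, the acid nuclease, at 1.31 and 3.34 FPKM. Gaa, the acid alpha-glucosidase that breaks down glycogen in lysosomes, went the other way at 23.4 and 9.80 FPKM, 2.39-fold lower (2.20 to 2.60).

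Other receptors and mitophagy genes had 2 higher and 1 lower of 16 measured. Retreg1 (listed as Fam134b), a receptor for the endoplasmic reticulum, was at 9.63 FPKM (WT) and 47.3 FPKM (SRSF1-MKO), a ratio of 4.91 (4.55 to 5.31). Phb2, a prohibitin of the inner mitochondrial membrane, was at 27.8 and 61.5 FPKM. Pink1, the kinase that marks damaged mitochondria, was at 75.9 and 32.0 FPKM, 2.37-fold lower (2.24 to 2.52).

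Of 19 other genes of autophagosome formation, 3 were higher and 0 lower. Atg4a, a protease that trims ATG8 proteins, was at 12.3 and 26.5 FPKM, Wdr45b, a relative of the Wipi proteins, at 6.12 and 11.5 FPKM, and Atg10, of the Atg12 conjugation, at 1.58 and 3.64 FPKM. Of 13 fusion genes 1 was higher, the SNARE Vamp8, at 7.70 and 25.1 FPKM. Other lysosomal membrane genes had 3 higher and 0 lower of 13, but 2 higher and 5 lower on the centred scale. The higher genes were the tetraspanin Cd63 at 48.7 and 134 FPKM, Tmem192 at 2.0 and 4.68 FPKM and Lmbrd1 at 4.47 and 7.48 FPKM.

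The control of the route by mTORC1 and AMPK showed 6 higher and 3 lower of 24. Fnip1, a partner of folliculin, was at 4.41 and 10.2 FPKM, and the Ragulator subunits Lamtor1 and Lamtor4 at 29.2 and 57.1 FPKM and at 8.87 and 15.4 FPKM. The lower genes were the Rag GTPase Rragd, at 35.2 and 22.5 FPKM, Tsc1, at 4.21 and 2.33 FPKM, and Sesn3, a sestrin, at 1.68 and 0.477 FPKM. Its paralogue Sesn2, among the 6 higher genes and named after its values were seen, went the other way at 0.309 and 1.94 FPKM, a ratio of 6.28. On the centred scale 3 of the 24 were higher and 3 lower.

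**Figure D4:**
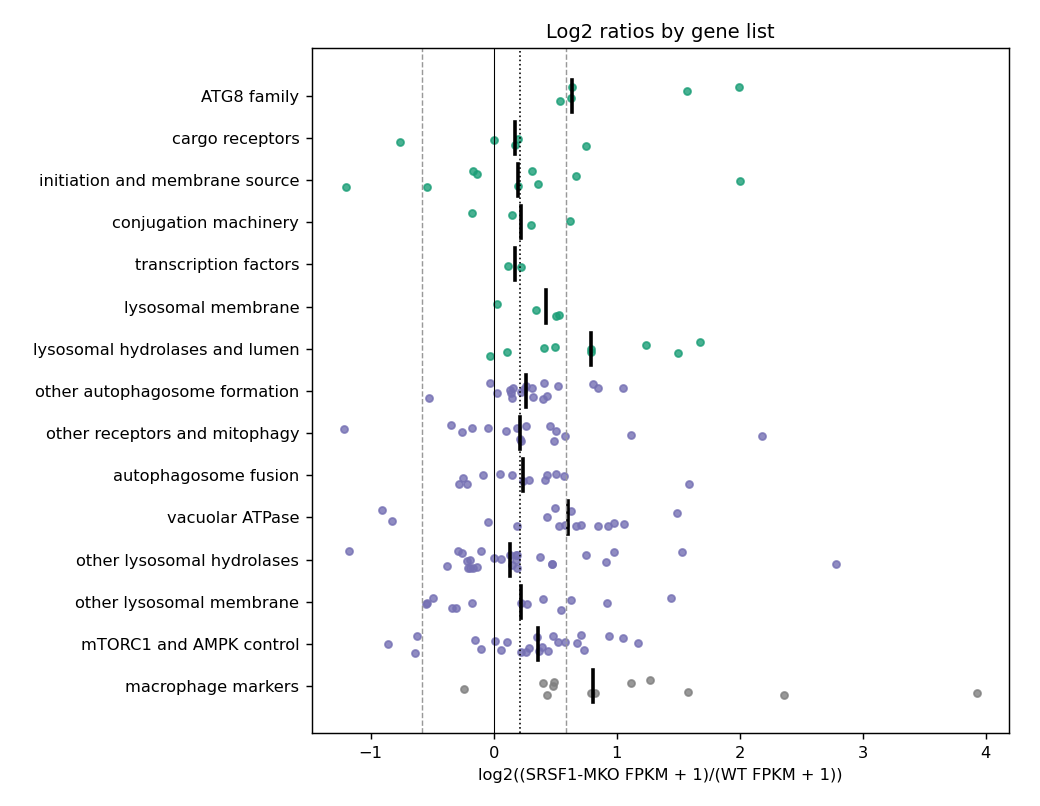
Log2((SRSF1-MKO FPKM + 1)/(WT FPKM + 1)) of every gene averaging at least 1 FPKM, by list, with the 39 genes by role in green, the 7 further lists in purple and macrophage markers in grey. Black bars are list medians, the dotted line is the median of all genes measured (0.21) and dashed lines are 1.5-fold; the medians run from 0.13 for the other lysosomal hydrolases to 0.80 for the macrophage markers, with the hydrolases and lumen group at 0.79.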

How the data were processed

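The authors deposited 1 table of FPKM values with 1 column per genotype, and both columns were used. Bowtie and the build mm10 are named in the submitters' processing notes; versions, annotation, counting method and strandedness are not given in those sources, so antisense reads cannot be told apart. Of 19042 genes above 0 in both libraries, 92.8% had FPKM ratios equal to a fraction of whole numbers (denominators to 3000, relative tolerance 1e-12) times 1 constant, 1.08. From 1272 low-count genes the commonest total was 23146640 reads for WT (144 genes), which gives 21350284 for SRSF1-MKO. Reads of a gene followed from its FPKM, this total and the length, within 2-fold of a RefSeq-matched GENCODE M21 transcript (GRCm38), at which both values were whole within 0.002 reads. For the 5 of the 39 genes with no such length the longest transcript was used, and their reads are approximate. Of the further genes named, Srsf1, Myh2, Myh4, Atp6v1h, Lamtor1 and Sort1 had no such length either, and their levels are uncertain too. The 39 genes had 55 to 16721 reads. Exact (Clopper-Pearson) 95% intervals on reads cover counting error only. Log2 ratios used a pseudocount of 1 FPKM, a minimum mean of 1 FPKM and a limit of 1.5-fold. The centred scale takes off the median of genes with an average of at least 5 FPKM. Older symbols were matched through RefSeq. The steps were tested on simulated reads for which the true length of each gene was supplied. That test cannot show how well lengths were chosen for the deposited values. Python 3.11.15 with scipy 1.17.1 was used.

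The 39 genes and all lists were chosen with earlier results of these data known. Named are all 39 genes and, of each further list, up to 3 genes with the largest and the smallest log2 ratios past 1.5-fold at a mean of 5 FPKM or more, and every called gene where a count is 5 or fewer. Of the genes this rule names, 1 is not reported here.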

Additional observations from a re-analysis of the deposited data

How the results depend on the processing

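The 13 higher and 2 lower of 38 genes became 14 and 3 with a pseudocount of 0.1 FPKM, which added Mcoln1 and Atg9a. With that pseudocount 3088 of all 10477 genes measured were higher and 1174 lower. The counts were 13 and 2 of 39 with no filter on low values, and 12 and 2 of 29 at a mean of 5 FPKM or more. With equal FPKM sums in both libraries the counts were 6 and 3 (13.0% and 14.7% of all genes), as they were on the centred scale. With mitochondrial and ribosomal RNA left out of those sums they were 13 and 2, beside 2494 and 843 of all 10477 genes. At a 2-fold limit they were 6 and 1 (9.44% and 3.12% of all genes). The median log2 ratio of 0.35 was 0.46 with a pseudocount of 0.1, 0.51 at a mean of 5 or more, 0.03 on the centred scale and 0.12 with equal sums. Centring on the median of all genes measured, an alternative chosen after seeing the data, gave 7 higher, 3 lower and a median of 0.14. The cause was not tested. Of the 39 log2 ratios, 11 changed sign on the centred scale, 8 with equal sums and 8 when centred on all genes measured, none of them beyond 1.5-fold as deposited. The same 6 genes were higher, and the same 3 lower, on the centred scale and with equal sums. No paired analysis was possible because each group holds 1 library. With 1 library a group, none could be left out, and depth limits only the genes with few reads, such as Atg7, Tfe3 and Atg14.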

Other observations

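Further genes that act on the lysosome or on autophagy were picked after their values were seen. Of those named here, Cst3, Gnptab, Sort1 and M6pr lay within 1.5-fold on the log2(FPKM + 1) scale. Cstb, a cytosolic inhibitor of cathepsins, was at 3.30 FPKM (WT) and 19.2 FPKM (SRSF1-MKO), a ratio of 5.82 with a 95% counting interval of 4.24 to 8.16. The secreted inhibitor Cst3 was at 123 and 171 FPKM, a ratio of 1.40 (1.32 to 1.48). Trp53inp2, a nuclear cofactor that moves to autophagosomes, was at 29.2 and 66.9 FPKM, a ratio of 2.29 (2.20 to 2.39), and Trp53inp1 at 1.43 and 2.93 FPKM. Depp1 (listed as 8430408G22Rik), an autophagy regulator, was at 2.33 and 8.78 FPKM, and the kinase Dapk2 at 4.98 and 16.7 FPKM.

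Gpnmb, a glycoprotein of lysosome-rich phagocytes, was at 0.296 FPKM (WT) and 3.61 FPKM (SRSF1-MKO), from about 26 and 293 reads, and the myeloid receptor Trem2 was listed at 0 in WT and at 0.654 FPKM in SRSF1-MKO. Of genes that sort hydrolases to the lysosome, Gnptab, which makes the mannose-phosphate tag, was at 4.80 and 2.93 FPKM, 1.64-fold lower on FPKM itself (1.43 to 1.89). The receptor Sort1 was at 11.0 and 8.24 FPKM, and M6pr, a mannose-phosphate receptor, was at 7.14 and 9.48 FPKM. None of these values has a replicate.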
